A study of Mus musculus with 12 samples.

Results

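The small proline-rich (Sprr) genes encode short proteins that become part of the cornified envelope, the cross-linked protein shell of the outermost epidermal cells. The proteins consist largely of proline-rich repeats between end domains rich in glutamine and lysine, and transglutaminases join these ends to loricrin and other envelope proteins. The genes lie together in the epidermal differentiation complex, are low in basal keratinocytes, and are known to be switched on in differentiating, stressed, wounded and tumour-forming squamous epithelium. Members were taken from a fixed list of names, each with an Affymetrix transcript cluster, a set of probes summarised into 1 value, that carries only that symbol. They are Sprr1a, Sprr1b, Sprr2b, Sprr2d, Sprr2f, Sprr2g, Sprr2h, Sprr2k, Sprr3 and Sprr4, 10 of the 15868 genes tested. Another 3 single-symbol genes, Sprr2e, Sprr2i and Sprr2j-ps, are not on the list and are given as neighbours only. All 10 lay above the filter on low values on all 12 arrays. The Sprr2 genes are close in sequence, so their clusters may share probes and single Sprr2 members are uncertain.

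Primary keratinocytes, the epithelial cells that build the epidermis, were grown from FVB/N mice, and their total RNA was measured on 12 arrays of the Affymetrix Mouse Gene 1.0 ST type, 3 in each of 4 groups. The groups were wild-type cells as control, wild-type cells transduced with v-rasHa (a viral oncogenic Ras), untreated MT-HGF cells, and mock-transduced MT-HGF cells given AG1478 for 24 h. AG1478 blocks the tyrosine kinase of EGFR, the receptor for epidermal growth factor. MT-HGF mice carry a hepatocyte growth factor (HGF) transgene driven by a metallothionein promoter, so HGF, the ligand of the receptor MET, is made by the cells themselves. The labels of the first 9 arrays share a note on a Ras transduction of 3 days, and the sources used here do not give whether the wild-type and untreated MT-HGF cells were mock transduced. The AG1478-treated arrays were described under other growth and extraction protocols, with serum at 8% throughout, and no vehicle-treated array of that set was analysed here. For each comparison that involves them, AG1478, mock transduction and this difference in handling cannot be told apart. The titles of the wild-type, v-rasHa and untreated MT-HGF arrays call the replicates biological, those of the AG1478-treated arrays only number them, and separate animals or cultures are not named for any. The p-values cover the spread between these arrays, which for the AG1478-treated group may be technical, and with 3 arrays in a group their precision is limited.

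Values are log2 expression values, and array medians lay between 6.77 and 6.84. Correlations between arrays of a group lay between 0.993 and 0.997. The transgene matched the labels, with Hgf between 10.59 and 10.80 on the 6 MT-HGF arrays and between 4.85 and 5.36 on the other 6. As a measure of background, each array's 95th percentile of 159 chemosensory receptor genes, taken as mostly silent in these cells, lay between 6.80 and 7.12. All 12 keratinocyte markers were above it in every group, with mean levels of 11.64 to 11.75 log2 units. The fibroblast list of 12 markers had mean levels of 9.07 to 9.12 on wild-type arrays, 8.38 to 8.41 on v-rasHa arrays, 8.63 to 8.72 on MT-HGF arrays and 8.67 to 8.71 on AG1478-treated arrays, and Lum was not above background in any group. The 8 melanocyte markers had mean levels of 9.98 to 10.17 in wild type, 10.09 to 10.24 in v-rasHa, 9.69 to 9.87 in MT-HGF and 9.73 to 9.82 in AG1478-treated cells, all 8 above background in each group. Relative to wild type, 8 of the 12 fibroblast markers were called lower and 0 higher in v-rasHa cells (19.9% and 12.6% of all genes). In MT-HGF cells 9 were lower and 3 higher (23.9% and 17.1%), and in AG1478-treated cells 9 and 3 (26.2% and 16.8%). Of the 8 melanocyte markers 0 were called in v-rasHa cells, 6 were lower in MT-HGF cells and 5 in AG1478-treated cells, with 0 higher. Of the 12 keratinocyte markers 1 was higher and 2 lower in v-rasHa cells and again in MT-HGF cells, and 2 and 1 in AG1478-treated cells. The 7 markers of simple epithelia had mean levels of 6.90 to 7.08 in wild type, 7.53 to 7.72 in v-rasHa, 7.97 to 8.01 in MT-HGF and 7.82 to 8.02 in AG1478-treated cells, with Cdx2, Vil1 and Muc1 not above background in any group. Of these 7, 4 were called higher and 0 lower than in wild type in each of the v-rasHa, MT-HGF and AG1478-treated groups. Of 10 leukocyte markers 6 passed the filter (group ranges within 6.77 to 7.12), with Ptprc, Itgam and Csf1r not above background in any group. Of 8 endothelial markers 6 passed (6.61 to 6.90), with Pecam1, Cdh5, Tek and Vwf not above background. The part of these other cell types in the Sprr differences was not tested, and a change in the share of differentiated cells cannot be told apart from a change in RNA per cell.

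Most Sprr genes were higher in v-rasHa cells and in MT-HGF cells than in wild-type cells. In v-rasHa cells 9 of 10 members rose and 0 fell, against 12.6% of all genes called higher and 19.9% called lower. In MT-HGF cells 9 of 10 rose and 0 fell, against 17.1% and 23.9%. The exception in both was Sprr2b. For those 9 all arrays lay above all wild-type arrays, a pattern held by 16.6% of all genes in v-rasHa and 20.8% in MT-HGF cells. The median difference over the 10 members was 1.56 log2 units for v-rasHa and 1.44 for MT-HGF, where the medians of all genes were -0.02 and -0.03. Wild-type Sprr2f and Sprr3 were not above background, so their rises are lower bounds, computed against the background level. With these 2 genes at their bounds the medians were 1.22 and 1.10. As measured, 6 members rose at least 2-fold in v-rasHa cells (2.58% of all genes) and 6 in MT-HGF cells (3.09%), and 5 did so in each with the bounds, Sprr3 being the difference. These 2 comparisons share the wild-type arrays, so their common direction is not independent evidence. A gene was called at a limma adjusted p under 0.05 (Benjamini-Hochberg over all 15868 genes).

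**Figure D1:**
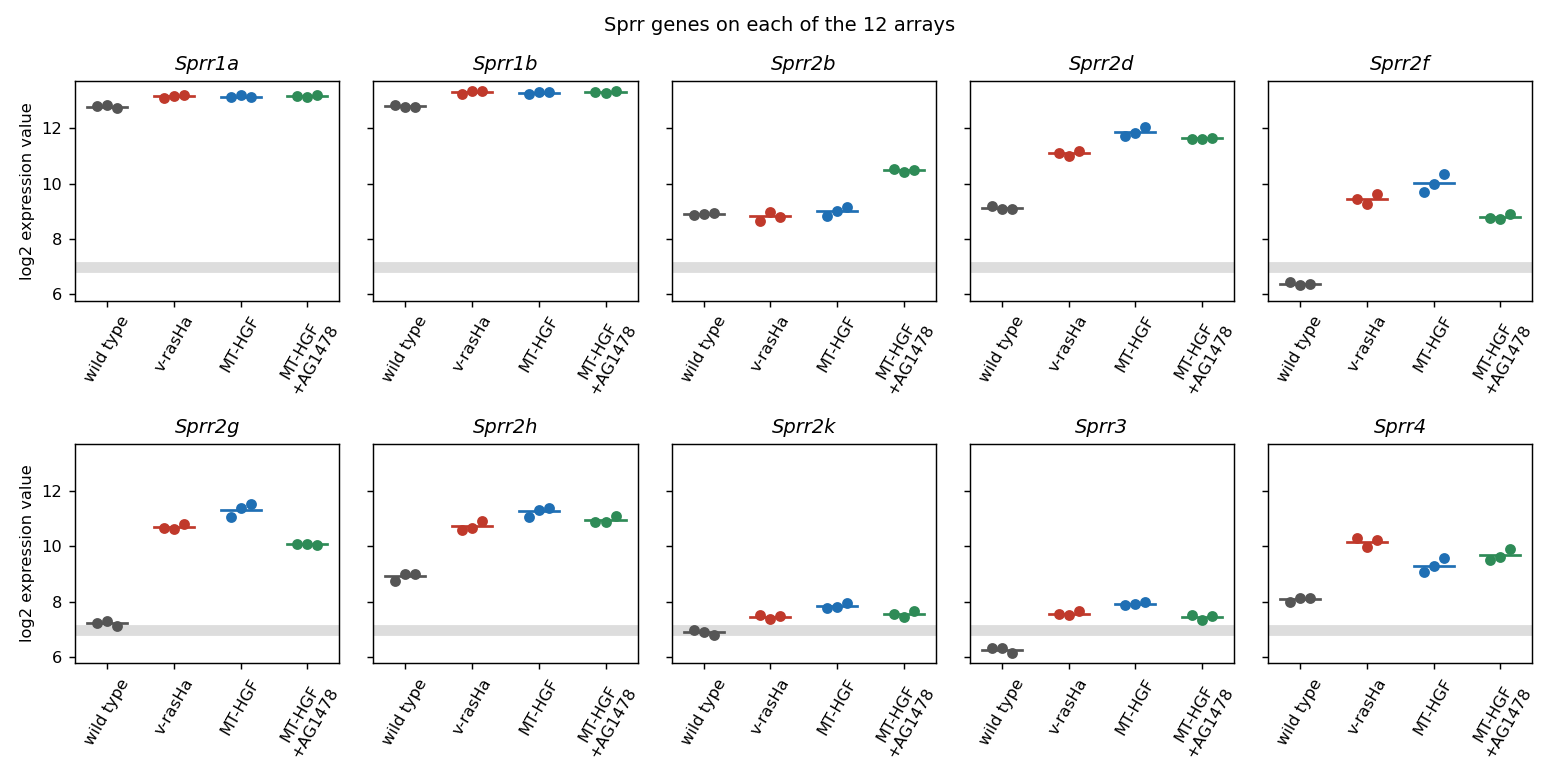
Log2 expression value (y axis) of each of the 10 Sprr genes on every array, with 3 points and their mean (line) per group; the grey band spans the array background of 6.80 to 7.12. Wild type is lowest for 9 genes, Sprr2b is high only on the 3 AG1478-treated arrays (10.41 to 10.53), and Sprr1a and Sprr1b lie above 12.7 on all arrays.

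The genes Sprr1a and Sprr1b encode the family members best known from cultured and injured keratinocytes, and both were already strongly expressed in wild-type cells. Sprr1a was at 12.79, 12.82 and 12.72 on the wild-type arrays, 13.10, 13.17 and 13.20 in v-rasHa, 13.12, 13.18 and 13.11 in MT-HGF, and 13.16, 13.14 and 13.20 in AG1478-treated cells. Each of the 9 other arrays was above all wild-type arrays, and those 3 groups overlapped. The rise was 0.38 ± 0.061 log2 units in v-rasHa cells (1.30-fold; limma adjusted p = 0.000112; errors here and after are standard errors with n = 3 arrays in each group) and 0.36 ± 0.061 in MT-HGF cells (limma adjusted p = 0.000138). Sprr1b was at 12.85, 12.77 and 12.75 in wild type, 13.23, 13.34 and 13.34 in v-rasHa, 13.23, 13.31 and 13.29 in MT-HGF, and 13.30, 13.26 and 13.33 after AG1478. Its pattern over the groups was the same in kind, with rises of 0.51 ± 0.062 (v-rasHa) and 0.49 ± 0.062 (MT-HGF). Between v-rasHa and MT-HGF cells neither gene was called, with 95% intervals of the difference of -0.15 to 0.11 (Sprr1a) and -0.15 to 0.11 (Sprr1b) log2 units. Both genes lie near the top of the range, where array maxima were 14.09 to 14.21. Differences of very bright clusters are compressed, so these rises and intervals may understate differences in RNA.

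The Sprr2 genes form the largest branch of the family and encode envelope precursors made of short repeats. Sprr2g, which RefSeq (GRCm38.p6) lists as a transcribed pseudogene, had the largest rise among the members as measured, though that of Sprr2f is only bounded from below and the order of these genes is not settled. It was at 7.22, 7.29 and 7.14 in wild type, 10.65, 10.64 and 10.82 in v-rasHa, 11.04, 11.37 and 11.51 in MT-HGF, and 10.09, 10.09 and 10.06 in AG1478-treated cells. No 2 of the 4 groups overlapped. The rise was 3.48 ± 0.096 log2 units (11.2-fold) in v-rasHa cells (limma adjusted p = 1.36e-13) and 4.09 ± 0.096 (17.1-fold) in MT-HGF cells (limma adjusted p = 1.41e-14).

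Sprr2f followed the same order of groups as Sprr2g, from wild type through AG1478-treated MT-HGF and v-rasHa to untreated MT-HGF. It was at 6.45, 6.36 and 6.36 in wild type, 9.44, 9.24 and 9.64 in v-rasHa, 9.69, 9.9985 and 10.36 in MT-HGF, and 8.76, 8.74 and 8.89 after AG1478. The wild-type values were not above background, so its rise is a bound: at least 5.67-fold in v-rasHa and at least 8.44-fold in MT-HGF cells (3.05 ± 0.13 and 3.63 ± 0.13 log2 units before the bound). The groups did not overlap for this gene either.

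Sprr2d and Sprr2h were measurable in wild type and rose less steeply. Sprr2d was at 9.19, 9.10 and 9.10 in wild type, 11.08, 11.01 and 11.18 in v-rasHa, 11.72, 11.84 and 12.03 in MT-HGF, and 11.61, 11.62 and 11.65 after AG1478, which makes rises of 1.96 ± 0.077 and 2.74 ± 0.077 log2 units in the first 2 comparisons. The AG1478-treated arrays lay just under the untreated MT-HGF arrays and above all v-rasHa arrays. Sprr2h was at 8.74, 9.01 and 8.995 in wild type, 10.58, 10.66 and 10.91 in v-rasHa, 11.07, 11.30 and 11.40 in MT-HGF, and 10.88, 10.89 and 11.09 after AG1478, with rises of 1.80 ± 0.10 and 2.34 ± 0.10. For Sprr2h the AG1478-treated arrays overlapped both neighbours. Sprr2k had the smallest rise among the Sprr2 genes called, from 6.80 to 6.99 in wild type, where 1 of 3 arrays was above background, to 7.37 to 7.51 in v-rasHa (0.55 ± 0.078) and 7.76 to 7.95 in MT-HGF (0.94 ± 0.078).

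Sprr2b stood apart from the other Sprr2 members in these comparisons. It was at 8.87, 8.90 and 8.93 in wild type, 8.66, 8.98 and 8.80 in v-rasHa, 8.82, 8.995 and 9.16 in MT-HGF, and 10.53, 10.41 and 10.49 in AG1478-treated MT-HGF cells. The first 3 groups overlapped, and the AG1478-treated arrays were all higher. The difference from wild type was -0.08 ± 0.089 log2 units in v-rasHa cells (95% interval -0.27 to 0.10) and 0.09 ± 0.089 in MT-HGF cells (-0.10 to 0.28). The smallest rise of another Sprr2 member, that of Sprr2k, had intervals of 0.38 to 0.72 and 0.77 to 1.11.

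Sprr3 and Sprr4 are single-gene branches of the family. Sprr3, whose product is a major protein of oesophageal and oral epithelium, was at 6.31, 6.32 and 6.13 in wild type, not above background, 7.56, 7.51 and 7.65 in v-rasHa, 7.87, 7.92 and 7.98 in MT-HGF, and 7.52, 7.33 and 7.48 after AG1478. Its rise was at least 1.55-fold in v-rasHa cells and at least 1.98-fold in MT-HGF cells. Sprr4, the most distant member, was at 7.98, 8.15 and 8.15 in wild type, 10.31, 9.99 and 10.21 in v-rasHa, 9.06, 9.27 and 9.57 in MT-HGF, and 9.51, 9.62 and 9.89 after AG1478. Of the members, only Sprr4 had v-rasHa as its highest group by a difference that was called. Its rise was 2.08 ± 0.12 log2 units there and 1.21 ± 0.12 in MT-HGF cells.

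**Figure D2:**
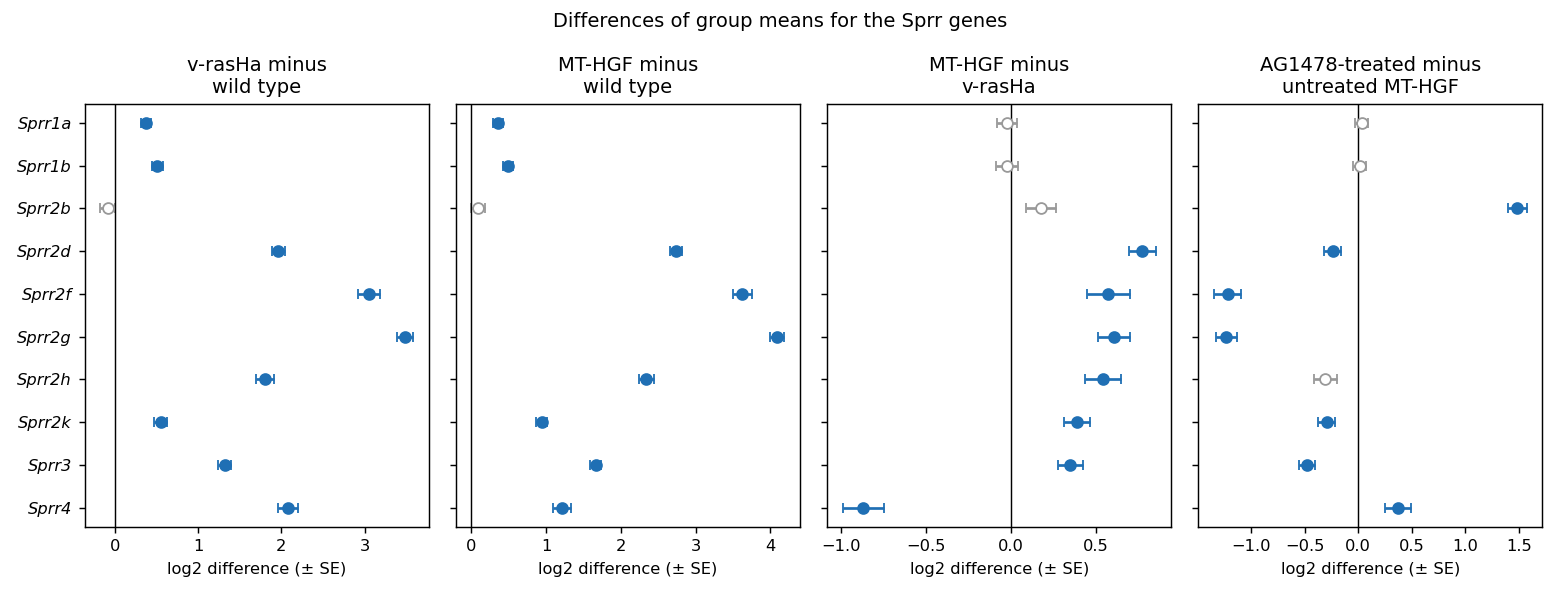
Log2 differences of group means (x axis, ± SE of the limma fit) for the 10 Sprr genes in 4 comparisons; filled blue points passed the adjusted p threshold and open grey points did not, and the x axes differ in scale. Sprr2f and Sprr3 are drawn at their measured differences, which against wild type are bounded by the array background. Sprr2b is the only point at 1.48 in the AG1478 panel, and Sprr4 the only one below -0.5 in the panel of MT-HGF against v-rasHa.

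The direct comparison of MT-HGF with v-rasHa cells showed that the Sprr genes were not raised equally. In MT-HGF cells 6 of 10 members were higher and 1 was lower than in v-rasHa cells, against 13.4% and 12.6% of all genes. The count lower is near the share of all genes. All arrays of MT-HGF were above those of v-rasHa for the same 6, a pattern held by 19.6% of all genes. The 6 were Sprr2d (0.77 ± 0.077 log2 units; limma adjusted p = 1.85e-06), Sprr2g (0.61 ± 0.096), Sprr2f (0.57 ± 0.13), Sprr2h (0.54 ± 0.10), Sprr2k (0.39 ± 0.078) and Sprr3 (0.35 ± 0.074). Sprr4 was lower in MT-HGF cells by 0.87 ± 0.12 (limma adjusted p = 6.17e-05), with no overlap of arrays. Sprr1a, Sprr1b and Sprr2b (0.18 ± 0.089; 95% interval -0.01 to 0.36) did not pass the threshold.

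Members differed in direction between AG1478-treated and untreated MT-HGF cells. After AG1478 5 of 10 members were lower and 2 higher than in untreated MT-HGF cells, against 9.91% and 6.57% of all genes. Sprr2g fell by 1.23 ± 0.096 log2 units (2.35-fold; limma adjusted p = 1.57e-07) and Sprr2f fell by 1.22 ± 0.13 (2.33-fold; limma adjusted p = 4.16e-06). Sprr3 fell by 0.48 ± 0.074, Sprr2k by 0.30 ± 0.078 and Sprr2d by 0.24 ± 0.077. For these 5 all AG1478-treated arrays lay below all untreated ones, as for 17.5% of all genes. Sprr2h was at -0.31 ± 0.10 (limma adjusted p = 0.0576). Sprr2b rose by 1.48 ± 0.089 (2.80-fold; limma adjusted p = 9.40e-09) and Sprr4 by 0.37 ± 0.12 (limma adjusted p = 0.0455, arrays overlapping), and Sprr2b was the 1 member with all treated arrays above all untreated ones (16.6% of all genes). Sprr1a and Sprr1b, both very bright, had 95% intervals of -0.10 to 0.16 and -0.12 to 0.15. The smaller changes were not stable: the count of members lower went from 5 to 3 without MT-HGF replicate 3 or without AG1478-treated replicate 2, as Sprr2d and Sprr2k lost their calls. Sprr2d lost its call in 5 of the 6 fits that left out an array of these groups, all but the one without MT-HGF replicate 1. The count of members higher went from 2 to 1 without MT-HGF replicate 1 or 2 or AG1478-treated replicate 2 or 3, as Sprr4 lost its call.

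Within groups, many members shared the array on which they were highest or lowest. MT-HGF replicate 3 was the highest array of its group for 8 of 10 members and replicate 1 the lowest for 9, with median deviations from the group mean of 0.15 and -0.15 log2 units. In v-rasHa cells replicate 3 was the highest for 7 members (median deviation 0.06) and replicate 2 the lowest for 6. In AG1478-treated cells replicate 3 was the highest for 7 and replicate 2 the lowest for 6. Wild-type replicate 3 was the lowest of its group for 6. The same counts over all genes were not made. Shifts of whole arrays therefore cannot be told apart from a trait of the members.

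The genes lower in AG1478-treated than in untreated MT-HGF cells were still above their wild-type levels. The difference in handling named above holds for these comparisons too. All 10 members were higher in AG1478-treated MT-HGF cells than in wild-type cells, against 16.8% of all genes called higher. As measured, 7 were at least 2-fold higher (2.74% of all genes), and 6 with Sprr2f and Sprr3 at their bounds. All arrays were above those of wild type for each of the 10, as for 21.1% of all genes. Sprr2g was 2.86 ± 0.096 log2 units above wild type (7.26-fold, limma adjusted p = 1.02e-12). Sprr2d was 2.50 ± 0.077 above it, Sprr2h 2.04 ± 0.10, Sprr4 1.58 ± 0.12 and Sprr2b 1.58 ± 0.089, and Sprr2f was at least 3.62-fold above. Against v-rasHa cells 2 of 10 members were higher (16.3% of all genes) and 3 lower (20.4%), counts near those shares. Sprr2b (1.66 ± 0.089) and Sprr2d (0.53 ± 0.077) were the higher ones, and Sprr2f (-0.65 ± 0.13), Sprr2g (-0.62 ± 0.096) and Sprr4 (-0.49 ± 0.12) the lower ones. None of these 5 overlapped, again near the shares of all genes, of which 21.9% lay wholly above and 23.9% wholly below v-rasHa.

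The 4 groups can be put in order of level for each gene, with steps that the fit called. All 3 steps were called for Sprr2f and Sprr2g (wild type, AG1478-treated, v-rasHa, MT-HGF, from low to high), for Sprr2d (wild type, v-rasHa, AG1478-treated, MT-HGF) and for Sprr4 (wild type, MT-HGF, AG1478-treated, v-rasHa). The step between AG1478-treated and untreated MT-HGF cells was not stable for Sprr2d and Sprr4, and lost its call in 7 of 15 alternative fits for each. For Sprr2k and Sprr3 wild type was lowest and MT-HGF highest, and the v-rasHa and AG1478-treated groups between them did not differ beyond their spread. For Sprr2h the AG1478-treated group was not separated from either neighbour. For Sprr1a and Sprr1b the single step called was that above wild type, and for Sprr2b that below the AG1478-treated group.

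The genes of the family lie side by side on mouse chromosome 3. In the RefSeq annotation of GRCm38.p6 the order is Sprr2a1, Sprr2a2, Sprr2a3, Sprr2b, Sprr2d, Sprr2e, Sprr2f, Sprr2g, Sprr2h, Sprr2i, Sprr2j-ps, Sprr2k, Sprr1b, Sprr3, Sprr1a and Sprr4, with Lelp1 on the Sprr2a1 side and Ivl, the gene of the envelope protein involucrin, next to Sprr4. The members that fell by over 1 log2 unit after AG1478, Sprr2f and Sprr2g, are neighbours. Sprr2h, next to Sprr2g on the other side, did not pass the threshold (-0.31 ± 0.10). Sprr2b, which rose, is separated by a pseudogene from Sprr2d, whose small fall (-0.24 ± 0.077) was not stable. The clusters of these Sprr2 genes may share probes, and the part of this in the likeness of neighbours was not tested. Of the single-symbol genes outside the 10, Sprr2e, Sprr2i and Sprr2j-ps lie inside this row and were called in the same direction as Sprr2f and Sprr2g after AG1478, at -0.60 ± 0.085, -0.65 ± 0.091 and -1.06 ± 0.12 log2 units. Another 3 clusters carry several Sprr symbols each and were left out of the gene counts.

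**Figure D3:**
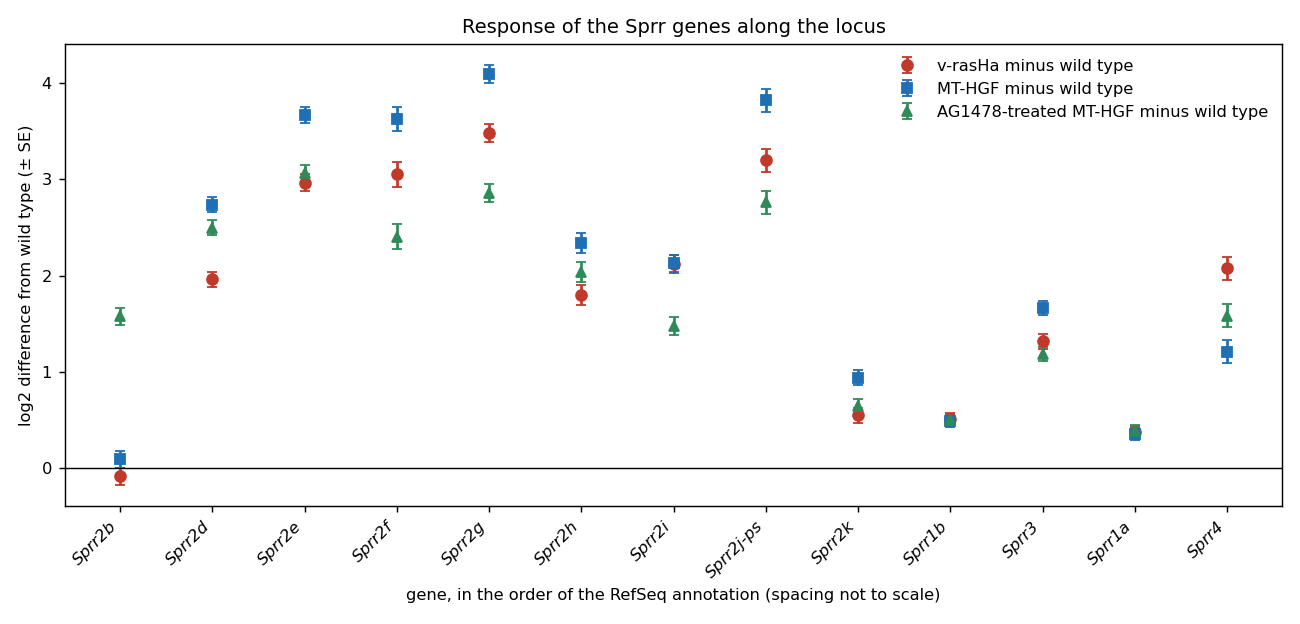
Log2 difference from wild type (y axis, ± SE) for 13 single-symbol Sprr genes in their order along the chromosome (x axis, not to scale) in v-rasHa, MT-HGF and AG1478-treated MT-HGF cells. In v-rasHa and MT-HGF cells the highest points are Sprr2e, Sprr2f, Sprr2g and Sprr2j-ps (Sprr2f drawn at its measured difference, as are Sprr2i and Sprr3), those of Sprr1a and Sprr1b stay near 0.5 or less in each group, and Sprr2b is raised only in the AG1478-treated group.

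The sequences upstream of the start are shown for Sprr2b, which rose after AG1478, and for Sprr2f, which fell. They are also shown for Sprr2d, whose small fall was not stable, Sprr2h, which did not pass, and Sprr1a, which was high throughout. They are the 250 bases before the annotated start, 5′ to 3′ on the gene's strand, from RefSeq (GRCm38.p6), at chr3:92316455-92316704 (Sprr2b, + strand), chr3:92364937-92365186 (Sprr2f, + strand), chr3:92338890-92339139 (Sprr2d, + strand), chr3:92385435-92385684 (Sprr2h, + strand) and chr3:92485882-92486131 (Sprr1a, - strand). Capitals mark matches to TGANTCA, a loose form of the binding letters of AP-1 (the Fos and Jun factors) in which N is any base. They also mark matches to TATAAA, the TATA box.
Sprr2b: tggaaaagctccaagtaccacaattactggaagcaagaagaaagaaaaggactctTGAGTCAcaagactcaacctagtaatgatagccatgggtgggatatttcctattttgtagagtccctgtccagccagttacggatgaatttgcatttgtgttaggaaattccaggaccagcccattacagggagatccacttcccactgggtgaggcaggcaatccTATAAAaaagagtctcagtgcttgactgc
Sprr2f: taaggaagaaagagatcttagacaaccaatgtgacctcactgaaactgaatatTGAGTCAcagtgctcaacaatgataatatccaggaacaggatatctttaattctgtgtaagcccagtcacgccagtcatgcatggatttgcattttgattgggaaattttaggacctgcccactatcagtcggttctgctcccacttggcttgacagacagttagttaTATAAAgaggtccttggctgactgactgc
Sprr2d: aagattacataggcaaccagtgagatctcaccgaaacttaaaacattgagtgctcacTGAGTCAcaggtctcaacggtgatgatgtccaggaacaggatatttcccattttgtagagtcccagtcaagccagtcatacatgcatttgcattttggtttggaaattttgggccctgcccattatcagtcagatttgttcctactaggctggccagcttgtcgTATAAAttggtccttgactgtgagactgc
Sprr2h: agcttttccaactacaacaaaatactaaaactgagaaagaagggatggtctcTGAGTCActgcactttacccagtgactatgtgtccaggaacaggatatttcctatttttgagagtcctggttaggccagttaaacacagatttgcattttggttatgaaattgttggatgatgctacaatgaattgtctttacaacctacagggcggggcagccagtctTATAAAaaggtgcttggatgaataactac
Sprr1a: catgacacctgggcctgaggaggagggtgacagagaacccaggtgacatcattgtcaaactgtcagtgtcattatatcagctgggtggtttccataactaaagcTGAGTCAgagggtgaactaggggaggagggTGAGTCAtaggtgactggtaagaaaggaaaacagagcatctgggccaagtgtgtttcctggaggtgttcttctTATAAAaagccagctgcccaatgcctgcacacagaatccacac
Sprr2b, Sprr2f, Sprr2d and Sprr2h each hold 1 AP-1 match, starting 195, 197, 193 and 198 bases before the start, and 1 TATA box at 29 bases in all 4. Sprr1a holds 2 AP-1 matches, at 146 and 116 bases. The part of these letters in the responses of the genes was not tested.

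Sequences were found for 9 of the 10 members, and Sprr2g is not among them. In the upstream 250 bases, searched on both strands, AP-1 letters were present in 7 of 9 members and in 6.75% of 32851 promoters of the same length, and a TATA box in 8 of 9 and in 12.4%. Both were present together in 7 members and in 1.21% of all promoters. The only AP-1 match of Sprr1b, 1 of these 7, is TGAATCA, which counts only through the open letter N. GGAAG, a longer form of the GGAA core of ETS factor sites, was present in 5 of 9 members and in 64.1% of all promoters. Sites with another base after GGAA were not counted. CACCC, a motif of Krüppel-like factors, was present in 5 of 9 and in 52% of all promoters, and in Sprr1a 1 match overlaps an AP-1 match. The GGAAG and KLF counts are near the shares of all promoters. Sprr2b held 2 GGAAG and 2 KLF matches, Sprr2k held 1 of each and Sprr2f held 1 GGAAG match. Sprr2d and Sprr2h held neither, though the sequences of both contain GGAA. A KLF match starts 47 bases before the start in both Sprr2b and Sprr2k. Sprr3 and Sprr4 had no AP-1 match in this window, and the Sprr4 record begins at its start codon, so its window may not be the promoter. The matches describe letters and show no binding. By global alignment the upstream sequences of the 5 Sprr2 members were identical at 61.1% to 80.6% of aligned positions, Sprr2b with the others at 63.5% to 65.0%, and all remaining pairs at 49.2% to 56.8%. The closest were Sprr2h and Sprr2k.

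**Figure D4:**
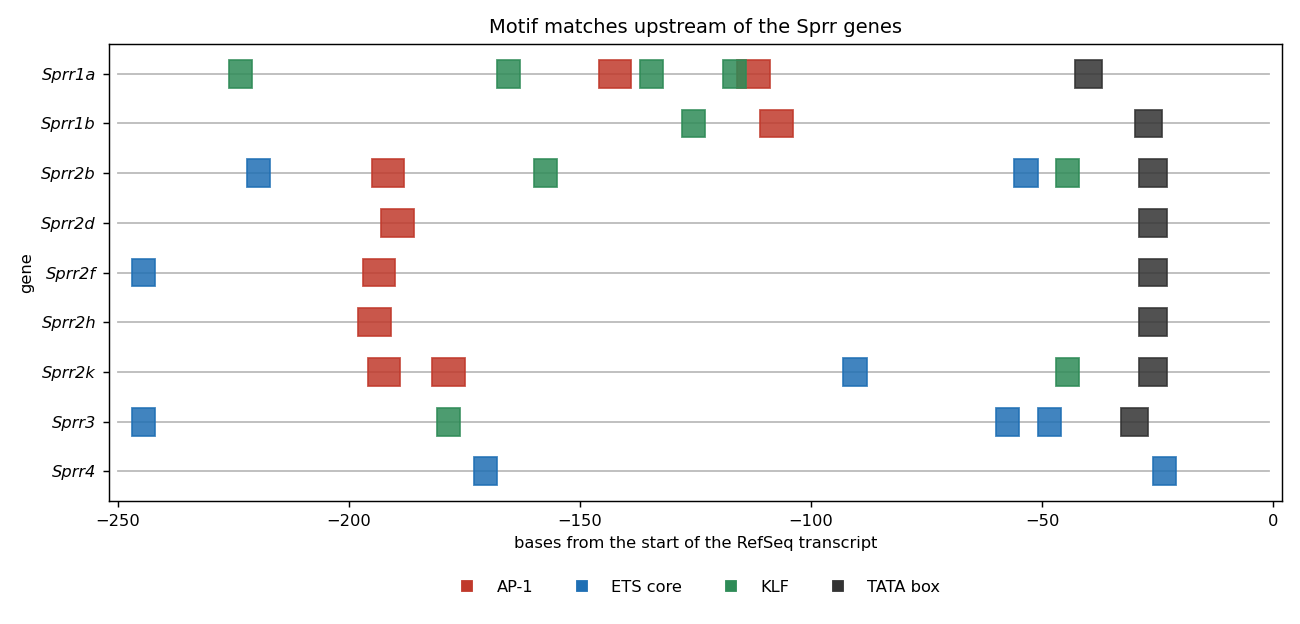
Positions of AP-1, ETS core (searched as GGAAG), KLF and TATA box matches in the 250 bases before the annotated start (x axis, in bases) of 9 Sprr genes. A TATA box at 29 bases and an AP-1 match between 193 and 198 bases before the start recur in the 5 Sprr2 genes, and Sprr4 holds neither.

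Most members correlated highly with the rest over the 12 arrays, though the order of the groups above wild type differed between them. As a description over arrays that fall into 4 groups with wild type apart, the Pearson correlation of a member with the mean of the other 9 was between 0.819 and 0.99 for all members except Sprr2b, where it was 0.22. Sprr4 had the lowest of the others. Low wild-type arrays alone can give such values: Sprr1a reached 0.959 though its other groups overlapped. The Sprr2 clusters may also share probes. Among 15858 genes outside the family list, the 10 with the highest correlation with the mean profile of the members (0.99 to 0.998) were Dnase1l2, Sdr9c7, Tgm1, Sprr2e, Lypd5, Glrx, Fam160a1, Il1f9, Ovol1 and Degs2. Dnase1l2 encodes a nuclease of cornifying keratinocytes, Tgm1 the membrane transglutaminase that cross-links Sprr proteins, Sdr9c7 and Degs2 enzymes of skin lipids, Glrx a glutaredoxin, Il1f9 a cytokine of the interleukin 36 group and Ovol1 a transcription factor. With Spearman correlation in place of Pearson 2 of these 10 stayed in the first 10, Sdr9c7 and Glrx. For Sprr2b, chosen for this after its values were seen, the nearest were Mgst1, a glutathione transferase gene (0.99), Gsdmc of the gasdermin family (0.986), Clca3a2 (0.983), Fry (0.982) and Wnt7b, a Wnt ligand gene (0.979). After AG1478 these differed from untreated MT-HGF by 1.72 (Mgst1), 1.83 (Gsdmc), 2.92 (Clca3a2), 0.76 (Fry) and 0.55 (Wnt7b) log2 units.

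The proteins to which Sprr products are joined, and the enzymes that join them, were read beside the family. The shares of all genes called higher and lower, against which the counts below can be read, were 12.6% and 19.9% for v-rasHa against wild type, 17.1% and 23.9% for MT-HGF against wild type, 13.4% and 12.6% for MT-HGF against v-rasHa, and 6.57% and 9.91% for AG1478-treated against untreated MT-HGF. They were 16.8% and 26.2% for AG1478-treated cells against wild type, and 16.3% and 20.4% against v-rasHa. Of 40 other envelope precursor genes 36 were measured. In v-rasHa cells 33 were higher and 1 lower (median 1.95 log2 units, 1.88 with bounded genes at their bounds). Lce3a and Lce3f of the late cornified envelope family had the largest differences as measured (bounds of 4.02 or higher and 3.46 or higher), with the desmosomal gene Dsp lower (-0.20). In MT-HGF cells 32 were higher and 1 lower (median 0.94, or 0.92 with bounds). Lce3e (4.35) and Lce3f (a bound of 2.94 or higher) had the largest differences as measured, with Dsp again lower (-0.19). Against v-rasHa cells, however, MT-HGF cells had 2 of these 36 higher and 24 lower (median -0.75, or -0.69 with bounds), while 6 of the 10 Sprr genes were higher and 1 lower (median 0.37). The higher ones were the plakin genes Ppl (0.33) and Evpl (0.32), and the largest falls were Lce1i (-1.89) and Lce1h (-1.87). After AG1478 8 of 36 were higher and 13 lower than in untreated MT-HGF cells (median -0.06). Tchh, the trichohyalin gene (1.54), and Rptn, the repetin gene (1.04), rose with Sprr2b, and Lce3a (-2.42) and Lce3f (-2.36) fell. AG1478-treated cells had 30 of 36 higher and 0 lower than wild type, and 4 higher and 26 lower than v-rasHa cells.

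Of 8 transglutaminase genes 7 were measured. Tgm1 and Tgm3 rose in v-rasHa cells (1.06 ± 0.062 and 1.91 ± 0.11 log2 units) and in MT-HGF cells (1.25 and 1.84), with 2 of 7 higher and 0 lower in each. MT-HGF cells had 1 of 7 higher than v-rasHa cells (Tgm1, 0.18) and 0 lower, a share near that of all genes. After AG1478 Tgm3 (0.97) and Tgm5 (0.86) were higher than in untreated MT-HGF cells, 2 of 7 higher and 0 lower. AG1478-treated cells had 3 of 7 higher and 0 lower than wild type, and 2 higher and 0 lower than v-rasHa cells.

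Among epidermal transcription factors, of which 28 of 30 were measured, 14 were higher and 4 lower in v-rasHa cells (median 0.19), and 15 higher and 2 lower in MT-HGF cells (median 0.21). Prdm1, a repressor gene of late differentiation (2.69 and 2.29), and Elf3, an ETS factor gene of epithelia (1.63 or higher and 2.00 or higher), had the largest rises as measured in these 2 comparisons. Pou2f3, a POU factor gene of suprabasal keratinocytes, was lower in both (-0.81 or lower and -0.89 or lower). MT-HGF cells had 4 of 28 higher and 4 lower than v-rasHa cells, near the shares of all genes, with Jun at -0.50. After AG1478 10 of 28 were higher and 6 lower: Pou2f3 rose by at least 2.18 and Maf by 0.56, while the AP-1 genes Fos and Fosl1 fell by 1.04 and 0.60. AG1478-treated cells had 20 of 28 higher and 1 lower than wild type, and 13 higher and 7 lower than v-rasHa cells, the lower count being near the share of all genes. All 13 S100 genes of the same gene complex were measured, with 4 higher and 1 lower in v-rasHa cells, 5 and 2 in MT-HGF cells, 1 and 2 for MT-HGF against v-rasHa, and 0 and 5 after AG1478. The S100 counts for MT-HGF against v-rasHa were near or under the shares of all genes, as were the counts lower against wild type. AG1478-treated cells had 4 higher and 2 lower than wild type and 0 higher and 8 lower than v-rasHa cells. The calprotectin genes S100a8 and S100a9 rose by 2.74 and 2.75 in v-rasHa and by 3.07 and 2.89 in MT-HGF cells, and S100a7a (-0.97) and S100a9 (-0.84) fell after AG1478.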

How the data were processed

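Total RNA of cultured primary mouse keratinocytes was measured on 12 arrays in 4 groups of 3, taken from the sample titles. The authors deposited log2 expression values, summarised per transcript cluster by RMA per the submitters' processing notes, with the version and the number of runs not given in the sources used here. RMA's shared scale and background step compress differences of dim and of very bright clusters. Of 35511 clusters the platform annotation gave 21789 a single symbol, 1621 several and 12101 none. Clusters over the 30th percentile of at least 3 of the 12 arrays were kept (25860), and a gene with several kept clusters was represented by the one with the highest mean. Each Sprr member had 1 cluster.

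The 4 group means were fitted over 12 arrays and 15868 genes by limma 3.58.1 in R 4.3.3, with 8 residual and 8.02 prior degrees of freedom. All 6 pairs of groups were compared, with two-sided p-values adjusted by Benjamini-Hochberg over all genes and a threshold of 0.05. A difference is given as a bound where the lower group's 3 arrays lay at or below their 95th percentile of chemosensory receptor genes. The fit was tested on simulated data. Alternatives were no filter, a filter at the 50th percentile, cluster means, equal medians, repeated quantile normalization, trended and robust moderation, array weights, the replicate number as a block, only the 6 arrays compared, each array left out, and a background at the 90th percentile.

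The members and the gene lists (other envelope precursors, transglutaminases, epidermal transcription factors, S100 genes, and markers of keratinocytes, fibroblasts, melanocytes, leukocytes, endothelium and simple epithelia) were chosen with earlier results of these data known. All members were named, and from each of the 4 other lists at most the 2 largest rises and 2 largest falls past the threshold in a comparison. Same-numbered replicates were not taken as pairs, because their deviations from the group means did not correlate over 0.1 in every pair. Upstream sequences came from RefSeq (GRCm38.p6), aligned with Biopython 1.88 in Python 3.11.15. Figures used matplotlib 3.10.9. Protein sequences were not used here.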

Additional observations from a re-analysis of the deposited data

Results flagged for a closer look

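Signal outside the gene tests appeared in clusters whose annotation lists several Sprr2 symbols. The cluster with 4 symbols, Sprr2b among them, was at 12.00 ± 0.018 log2 units in wild type (SD, n = 3 arrays), 11.83 ± 0.080 in v-rasHa, 12.39 ± 0.046 in MT-HGF and 12.67 ± 0.0089 in AG1478-treated MT-HGF cells, which is 0.66 above wild type. The other 2 clusters, with 2 symbols each, held identical values on every array, at 12.09 ± 0.057, 12.05 ± 0.14, 12.74 ± 0.028 and 13.17 ± 0.013 in the same order of groups, 1.08 above wild type after AG1478. In both patterns, as for Sprr2b, the AG1478-treated arrays were the highest and v-rasHa was not above wild type. Unlike Sprr2b, untreated MT-HGF arrays lay above wild-type arrays, by 0.38 (4 symbols) and 0.65 (2 symbols). AG1478-treated cells were above untreated MT-HGF cells by 0.28 and 0.43, against 1.48 for Sprr2b. The differences of these clusters were not tested.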

How the results depend on the processing

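Over the 6 comparisons and 15 alternatives each, 876 of 900 member differences kept their side of the threshold, 16 lost and 8 gained a call, and 0 called differences reversed. Of the 876, 14 changed sign, all of Sprr1a or Sprr1b between groups other than wild type, uncalled in both fits and at most 0.064 log2 units in size under the alternative. The counts of members called were the same for v-rasHa and MT-HGF against wild type, MT-HGF against v-rasHa and AG1478-treated against wild type under all alternatives run. Against v-rasHa, AG1478-treated cells had 2 to 3 members higher. For AG1478 against untreated MT-HGF, the count higher went from 2 to 1 with no filter, with equal array medians and with the 6 compared arrays alone. The count lower went from 5 to 4 with repeated quantile normalization and with those 6 arrays, and to 6 with trended moderation, array weights and the block, and leaving out 1 array gave 1 to 2 higher and 3 to 6 lower. There Sprr4 was at 0.25 to 0.51 and Sprr2d at -0.31 to -0.16 log2 units without 1 array, and Sprr2b at 1.40 to 1.57. The replicate block gave Sprr2h a call for AG1478-treated cells against untreated MT-HGF (-0.31, limma adjusted p = 0.00679) and against v-rasHa (0.23, limma adjusted p = 0.0156) and changed no other call of a member. Same-numbered arrays had correlations of deviations between -0.44 and 0.53. Array weights, whose fit stopped before its tolerance, moved the counts of all genes from 2004 to 3100 higher and from 3154 to 4996 lower for v-rasHa against wild type, from 1043 to 1795 higher for AG1478 against MT-HGF, and from 2663 to 4367 higher for AG1478 against wild type. Without MT-HGF replicate 2, 683 genes were higher after AG1478. With the 90th percentile as background the bound of Sprr2f was 2.74 log2 units in v-rasHa, against 2.50, and that of Sprr3 0.87, against 0.63. Signal near background limits Sprr2f, Sprr2k and Sprr3 in wild type, and very bright signal limits Sprr1a and Sprr1b in all groups.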
